A study of Mus musculus with 20 samples.

Results

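The 9 genes described here are homing receptors and adhesion genes, that is, surface proteins through which T cells enter, stay in or leave a tissue. They are a list of gene symbols (Ccr7, Ccr9, Cxcr4, S1pr1, Cd44, Itga4, Itgb7, Itgal and Selplg) set by no threshold on their values, and each symbol matched 1 of the 39017 genes in the table of estimated read counts. Chemokine receptors such as CCR7, CCR9 and CXCR4 sense ligands made by stroma and start directed migration, whereas S1PR1 reads the sphingosine 1-phosphate gradient that draws T cells out into blood and lymph. Integrins work as pairs of an alpha and a beta subunit, are switched to high affinity by chemokine signals and hold the cell on endothelium or matrix. PSGL-1 (encoded by Selplg) and CD44 carry the sugars that selectins bind during rolling, and T-ALL, a cancer of T cell precursors, uses several of these molecules in bone marrow and thymus.

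The samples were bone marrow from mice carrying murine T-ALL induced by insertional mutagenesis with the MOL4070LTR retrovirus in C57Bl/6 x 129Sv/Jae F1 mice. In the study, primary leukemias arose after neonatal virus injection and were then transplanted into irradiated adult wild-type F1 recipients. Each leukemia is 1 primary tumor, and its recipients keep their own hematopoietic cells. Each leukemia had 1 library in a column named DEX and 1 in a column named VEH. The DEX columns of 2M, 73A and 4638 end in a tag that no sample title of that leukemia carries, so they were assigned by the leukemia's name alone. Neither the labels, which list no treatment, nor the study's text spells these letters out, and nothing says whether both libraries of a leukemia came from separate recipients.

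The comparison used 9 leukemias (20M, 2M, 5C, 73A, 73M, 78A, 8633, JW14 and JW81), hence 18 of 20 libraries. The libraries of 4638 were kept out, a choice carried over from an earlier processing of these data. The study's text names only 73M and JW81, so it does not set 4638 apart from the other leukemias, and adding 4638 was an alternative. Depth ran from 8226528 counts (JW14, DEX) to 201222288 counts (73M, VEH), so that 3 counts on 1 kb of exon correspond to between 0.0149 and 0.365 FPKM, counting error only. In 5 of the 18 libraries (DEX of 20M, 73M, JW14 and JW81, and VEH of 5C) ribosomal RNA genes exceeded 1 CPM, at 21.6 CPM or more against at most 0.00497 CPM elsewhere. Most of these were DEX libraries, so a model term for this group overlaps with the column name and cannot fully be told apart from it. All 12 listed T lineage genes were detected in every leukemia, with a summed level of 525 to 1315 FPKM in VEH and 548 to 1183 FPKM in DEX libraries. Neutrophil genes were also abundant: the 10 on that list summed to 44.1 to 4625 FPKM in VEH and 20.4 to 2738 FPKM in DEX libraries, lowest in JW14 and highest in 73A. These were bulk samples, so fewer cells of a type and less RNA per cell cannot be told apart.

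Ccr9 and Itgb7 are shown by sequence because their levels differed most between leukemias, a choice made after their values were seen. CCR9 is the receptor for the thymic and intestinal chemokine CCL25, and integrin beta 7 pairs with alpha 4 to bind MAdCAM-1 on gut endothelium. The promoter windows, 300 bases that span the RefSeq gene start on GRCm38.p6, lie at chr9:123766961-123767260 on the plus strand for Ccr9 and at chr15:102231886-102232185 on the minus strand for Itgb7. Capitals mark CACCC, letters within the KLF factors' motif, on either strand (GGGTG where it lies on the other strand).
Ccr9 promoter: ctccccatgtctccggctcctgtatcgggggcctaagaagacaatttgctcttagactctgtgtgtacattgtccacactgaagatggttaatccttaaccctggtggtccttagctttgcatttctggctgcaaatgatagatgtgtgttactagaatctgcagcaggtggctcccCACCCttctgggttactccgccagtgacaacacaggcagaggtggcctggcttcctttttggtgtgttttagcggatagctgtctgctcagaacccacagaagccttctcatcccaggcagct
Itgb7 promoter: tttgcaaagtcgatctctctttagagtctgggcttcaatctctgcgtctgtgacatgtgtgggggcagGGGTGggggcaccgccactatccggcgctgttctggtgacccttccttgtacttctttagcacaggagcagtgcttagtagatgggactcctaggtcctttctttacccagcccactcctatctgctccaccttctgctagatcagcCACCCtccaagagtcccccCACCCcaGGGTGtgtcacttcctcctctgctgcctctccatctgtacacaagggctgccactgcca
These letters occurred 1 time in the Ccr9 window and 4 times in that of Itgb7. Of the other member windows, Itga4 held them 4 times, Cxcr4 1 time and Cd44 0 times. Of 32851 promoter windows of this length, 57.5% held them at least 1 time and 3.10% held them 4 or more times. GTAAACA, the FOXO motif, was in none of the 5 member windows at hand and in 3.65% of all windows. A match is a description of these letters only.

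The members lay on different levels, given here as FPKM, a scale that corrects for exon length and depth and allows genes to be compared. Cxcr4 was the highest, at 113 ± 28.1 FPKM (SD, n = 9 leukemias, each the mean of its pair of libraries). It was followed by Itgal at 47.7 ± 21.6, Itgb7 at 34.0 ± 32.1, Selplg at 32.4 ± 6.99 and Itga4 at 32.3 ± 19.2 FPKM. Ccr9 stood at 19.1 ± 15.7 and Cd44 at 13.0 ± 12.9 FPKM, whereas Ccr7 at 2.01 ± 2.40 and S1pr1 at 1.28 ± 1.17 FPKM were low and rested on as few as 9 counts in a library. The order between genes depends on the exon model, because with the principal transcript in place of all merged exons Selplg came to 74.7, Itgal to 60.3, Itga4 to 46.3 and Ccr9 to 37.6 FPKM.

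**Figure D1:**
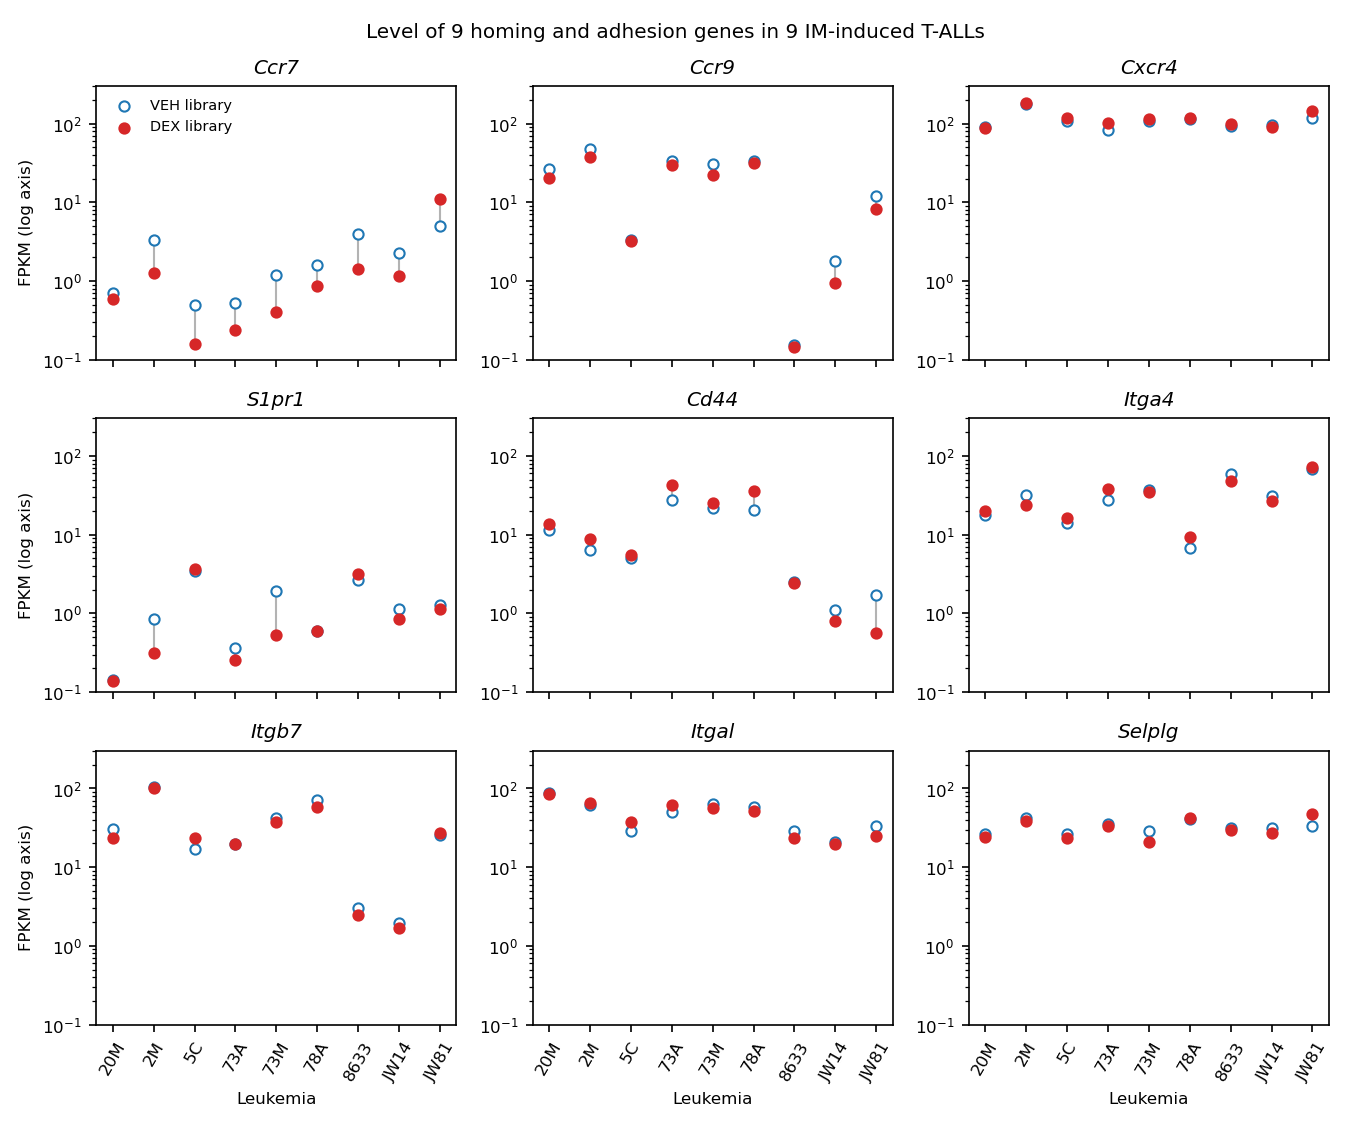
Level of each member (FPKM, log axis) in the 9 leukemias, with open circles for the VEH and filled circles for the DEX library. Cxcr4 and Selplg span 2.02-fold and 1.67-fold between the highest and lowest leukemia, and Ccr9 spans 285-fold.

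All 9 members differed among leukemias by more than the spread within them (edgeR quasi-likelihood F test, Benjamini-Hochberg adjusted p from 1.12e-09 for Ccr9 to 0.00366 for Selplg). The same test called 82.5% of the 11339 genes tested, so that the members' count lies close to that of the transcriptome. The size of the differences, relative to the spread within leukemias, did vary between members. On the log2(FPKM + 1) scale the SD among leukemias was 10.1 times the SD within leukemias for Itgb7 and 8.16 times for Ccr9, but 1.75 times for Ccr7 and 1.69 times for Selplg. The SD within leukemias holds the DEX minus VEH change, and this scale compresses low levels. Between the lowest and highest leukemia Ccr7 spanned 24.6-fold and Selplg 1.67-fold.

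Among the chemokine receptors, Cxcr4, the receptor for CXCL12 that retains blood precursors in marrow, was the most even. Its leukemia means were 88.5 FPKM in 20M, 92.4 in 73A, 93.7 in JW14, 95.3 in 8633, 111 in 73M, 112 in 5C, 116.3 in 78A, 131 in JW81 and 178 in 2M. The libraries of 2M lay above those of every other leukemia, while 6 of 8 neighbouring pairs in this order overlapped.

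Ccr9 separated the leukemias instead. It was at 0.150 FPKM in 8633, 1.37 in JW14 and 3.23 in 5C, then 10.1 in JW81 and 23.3 in 20M, followed by 26.4 in 73M, 31.7 in 73A, 32.6 in 78A and 42.8 in 2M. From 8633 to 20M no neighbours overlapped, whereas 20M, 73M and 73A each overlapped with the next, and 2M lay above them all. Exons of the Ccr9 model share 1932 bases with AC165425.1, which reached at most 1.497 FPKM, and whether counting used the strand is not given in the sources used here.

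Ccr7, which guides T cells to CCL19 and CCL21 in lymph nodes and guides T-ALL cells into the central nervous system, was low in 8 of 9 leukemias. Its means were 0.326 FPKM in 5C, 0.381 in 73A, 0.647 in 20M, 0.797 in 73M, 1.23 in 78A, 1.71 in JW14, 2.27 in 2M, 2.71 in 8633 and 8.01 in JW81. JW81 stood 2.96-fold above 8633, with no overlap of their libraries, and 6 of the 8 neighbouring pairs overlapped.

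S1pr1, the egress receptor, was at 0.1396 FPKM in 20M and 0.310 in 73A, then at 0.576 in 2M and 0.604 in 78A, 0.988 in JW14, 1.21 in JW81, 1.24 in 73M, 2.91 in 8633 and 3.54 in 5C. The libraries of 8633 and 5C lay above all others and did not overlap each other. The 3 leukemias with the least Ccr9 included these, and over the 9 leukemias S1pr1 and Ccr9 had the most negative Pearson r of the 36 pairs of members (-0.75, n = 9, a description of leukemias that share each library's depth and composition).

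Of the adhesion genes, Cd44, the hyaluronan receptor that activated T cells and myeloid cells also carry, ran over 37.0-fold. It was at 0.951 FPKM in JW14, 1.14 in JW81, 2.45 in 8633, 5.26 in 5C, 7.60 in 2M, 12.6 in 20M, 23.8 in 73M, 28.1 in 78A and 35.2 in 73A. JW14 and 73A were also the leukemias with the lowest and the highest mean log2(FPKM + 1) over the neutrophil list (1.34 and 7.003), but JW81, next to the lowest for Cd44, had 5.00. In the Cd44 order 3 of 8 neighbouring pairs overlapped. The part of other cells in the Cd44 level was not tested.

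Itgb7 gave the clearest order, with overlap in 2 of 8 neighbouring pairs. It was at 1.80 FPKM in JW14 and 2.75 in 8633, then between 19.9 and 27.0 FPKM in 73A, 5C, JW81 and 20M, and at 39.7 in 73M, 65.0 in 78A and 103 in 2M. The step from 8633 to 73A was 7.24-fold. Itgb7 lies on chromosome 15, whose 419 tested genes had a median shift of 0.14, 0.22, 0.16 and 0.16 (log2, against the median leukemia) in 2M, 78A, 8633 and JW14, which include the highest and the lowest Itgb7 levels. In the other leukemias that shift was between -0.25 and 0.01, and its part in the Itgb7 level was not tested.

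Itga4, the alpha 4 subunit that pairs with beta 7 or with beta 1 (encoded by Itgb1), followed another order, with overlap in 3 of 8 neighbouring pairs. It was at 8.02 FPKM in 78A, 15.2 in 5C, 18.95 in 20M, 27.9 in 2M, 28.9 in JW14, 32.7 in 73A, 35.8 in 73M, 53.8 in 8633 and 69.7 in JW81. The balance of both beta subunits therefore differed: the ratio of Itgb7 to Itgb1 (FPKM) was 3.03 in 2M, 1.78 in 5C and 1.39 in 78A, below 1 in the other 6, and 0.0326 in JW14 and 0.0586 in 8633. Itgae, the alpha E subunit that also pairs with beta 7, reached 16.5 FPKM in JW81 and 4.88 in 2M and was at most 1.03 FPKM elsewhere. Exons of Itga4 share 1124 bases with Cerkl, which reached at most 0.967 FPKM.

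Itgal, the alpha L subunit of LFA-1, was at 20.4 FPKM in JW14, 26.1 in 8633, 28.9 in JW81, 33.3 in 5C, 55.3 in 78A, 56.1 in 73A, 60.2 in 73M, 63.2 in 2M and 85.7 in 20M. The libraries of JW14, 8633, JW81 and 5C lay below those of the other 5 leukemias. Its beta 2 partner Itgb2, which myeloid integrins also use, was 1.10 to 1.74 times the Itgal level in 8 leukemias and 0.525 times in 5C.

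**Figure D2:**
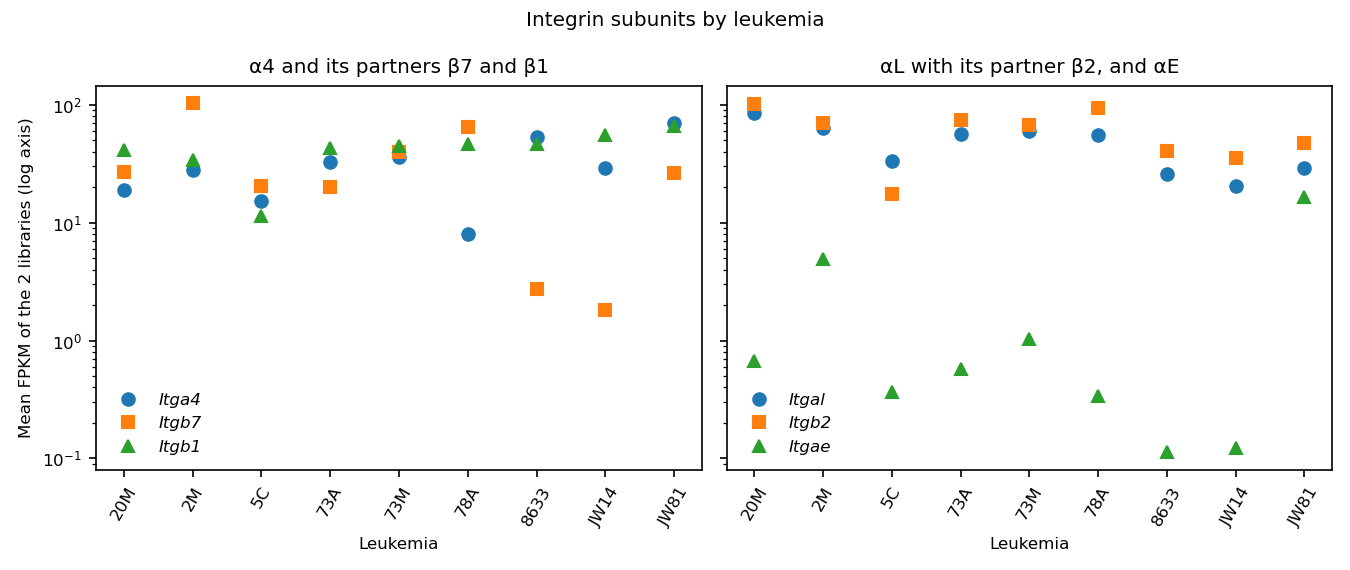
Mean FPKM of alpha and beta integrin subunits in the 9 leukemias, with Itga4, Itgb7 and Itgb1 in the left and Itgal, Itgb2 and Itgae in the right panel. Itgb7 exceeds Itgb1 in 2M, 5C and 78A and is lowest in JW14 and 8633.

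Selplg varied least, from 24.9 FPKM in 73M, 25.0 in 5C and 25.3 in 20M through 29.4 in JW14, 30.6 in 8633 and 34.1 in 73A to 40.2 in 2M, 40.8 in JW81 and 41.6 in 78A. In this order 5 of 8 neighbouring pairs overlapped.

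For each member, the genes whose mean log2(FPKM + 1) followed it most closely over the 9 leukemias were found among all 11339, which makes high values of r common with so few points. Ccr7 was closest to Gsn (r = 0.97), which encodes the actin-severing protein gelsolin, and to Gm13123 (0.97). Ccr9 was closest to Tbc1d10b (0.99) and Sytl3 (0.98), S1pr1 to Qrich1 (0.97) and Mob2 (0.95), and Cxcr4 to Ubxn4 (0.94) and Acbd6 (0.92), both on chromosome 1 as Cxcr4 is. Cd44 was closest to Slc31a2 (0.97) and Stk3 (0.96), Itga4 to A230050P20Rik (0.96) and Tec (0.96), Itgb7 to Tbc1d17 (0.95) and Tmem9 (0.95), Itgal to Tnks2 (0.99) and Slc26a2 (0.98), and Selplg to Tradd (0.94) and Bcam (0.91). Between members the highest r was 0.89 for Ccr9 with Itgb7, followed by 0.86 for Ccr9 with Itgal and 0.82 for Cd44 with Itgal (n = 9 each).

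The DEX and VEH libraries were then compared within leukemias. None of the 9 members passed an adjusted p of 0.05 (edgeR with leukemia as a block), where 13.0% of the genes tested did (6.22% higher and 6.79% lower in DEX). At an unadjusted p under 0.05 there were 3 members (Ccr7, Ccr9 and Cxcr4), against 31.5% of all genes. DESeq2 called 2 members, Ccr7 and Ccr9, beside 19.1% of all genes, and limma called 1, Ccr9, beside 13.5%. Without the filter on low genes edgeR called 2, beside 6.28% of the 28697 genes then tested.

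**Figure D3:**
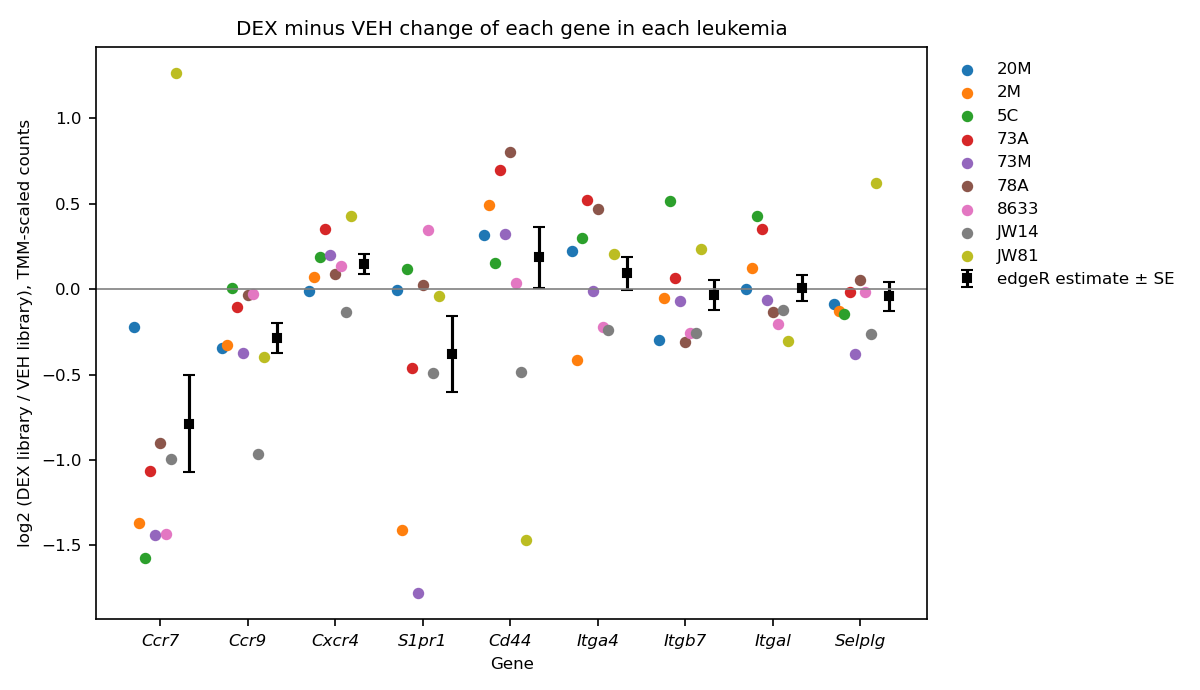
DEX over VEH ratio (log2, TMM-scaled counts) of each member, with 1 point per leukemia and a square with bar for the edgeR log2 fold change ± SE. Ccr7 lies below 0 in 8 leukemias and at 1.27 in JW81, and the edgeR values of Itga4, Itgb7, Itgal and Selplg are between -0.04 and 0.09.

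Ccr7 had the largest difference and the widest spread. Its level went from 0.708 FPKM in the VEH to 0.586 in the DEX library of 20M, from 3.28 to 1.26 in 2M, from 0.492 to 0.159 in 5C, from 0.523 to 0.239 in 73A, from 1.19 to 0.407 in 73M, from 1.62 to 0.851 in 78A, from 4.00 to 1.42 in 8633 and from 2.25 to 1.17 in JW14. In JW81 it went from 5.00 to 11.0 FPKM. The DEX library was thus the lower one in 8 of 9 leukemias, with log2 ratios from -1.57 to -0.22, and the higher one in JW81 (1.27), and both sets of libraries overlapped. In 4638, outside the comparison, Ccr7 went from 0.806 FPKM in VEH to 1.23 in DEX (log2 ratio 0.62, 32 and 37 counts). The edgeR log2 fold change was -0.79 (SE 0.285, 95% interval -1.41 to -0.17, adjusted p = 0.0854), and without JW81 it was -1.11 (adjusted p = 0.00622). With 4638 added it was -0.65 (adjusted p = 0.148). In the 4 leukemias free of ribosomal RNA libraries it was -1.22 (adjusted p = 0.0225), against -0.41 (0.586) in the other 5, and this difference was not tested.

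Ccr9 was lower in the DEX library of 8 leukemias and at a log2 ratio of 0.01 in 5C (TMM-scaled; on the FPKM scale it was lower in all 9). In VEH libraries it had a lowest, median and highest level of 0.154, 26.4 and 47.8 FPKM, and in DEX libraries of 0.145, 20.1 and 37.7 FPKM, so that the sets overlapped widely. The edgeR log2 fold change was -0.28 (SE 0.0870, 95% interval -0.47 to -0.10, adjusted p = 0.0504), just outside the threshold. The largest ratio was in JW14 (-0.97), followed by JW81 (-0.40), 73M (-0.37), 20M (-0.34) and 2M (-0.33), and the other 3 lower ratios were between -0.11 and -0.03. JW14, JW81, 73M and 20M are the leukemias with a ribosomal RNA library in DEX, and with that library group as a term the log2 fold change was -0.19 (adjusted p = 0.180). It was -0.14 (adjusted p = 0.345) in the 4 leukemias free of such libraries and -0.40 (0.147) in the other 5, and this difference was not tested.

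Cxcr4 was the higher one in DEX in 7 of 9 leukemias, with ratios from -0.14 in JW14 to 0.43 in JW81. Its lowest, median and highest levels were 83.2, 106 and 175 FPKM in VEH and 86.7, 115 and 182 FPKM in DEX libraries, again overlapping. The log2 fold change was 0.15 (SE 0.0607, 95% interval 0.01 to 0.28, adjusted p = 0.123).

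S1pr1 showed no common direction, with DEX higher in 3 and lower in 6 leukemias. Its level went from 1.95 to 0.529 FPKM in 73M (log2 ratio -1.78) and from 0.839 to 0.312 in 2M (-1.41), while the other 7 ratios lay between -0.49 and 0.35. The log2 fold change was -0.38 (SE 0.224, 95% interval -0.87 to 0.11, adjusted p = 0.263), and without 73M it was -0.19 (adjusted p = 0.542). In the same pair of 73M libraries the B lineage list went from a sum of 29.8 to 5.57 FPKM and the erythroid list from 769 to 102 FPKM, and their part in the S1pr1 values was not tested. Klf2, the transcription factor that drives S1pr1 in T cells, had 0.17 (adjusted p = 0.613), with log2 ratios of -1.10 in 73M, -0.28 in 2M and between -0.14 and 1.57 in the other 7. The ratio of 1.57, in JW14, rested on 6 counts in VEH and 4 in DEX.

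Cd44 was higher in DEX in 7 leukemias (6 on the FPKM scale, where 8633 was lower) and lower in JW14 and JW81, the leukemias in which it was lowest. It went from 20.7 to 35.5 FPKM in 78A (log2 ratio 0.80) and from 27.6 to 42.9 in 73A (0.70), but from 1.72 to 0.569 in JW81 (-1.47). The log2 fold change was 0.19 (SE 0.179, adjusted p = 0.498), against 0.53 (adjusted p = 0.0563) in the 4 leukemias free of ribosomal RNA libraries and -0.14 (0.759) in the other 5. It was 0.34 (adjusted p = 0.0802) without JW81, 0.11 (0.745) without 73A and 0.09 (0.767) without 78A. The mean over the neutrophil list changed by 0.60 in 78A, -0.55 in 73A and -1.27 in JW81 (log2), and its part in the Cd44 values was not tested.

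The remaining members had the values nearest to 0. The 95% intervals of the log2 fold change were -0.12 to 0.31 for Itga4, -0.22 to 0.15 for Itgb7, -0.16 to 0.18 for Itgal and -0.23 to 0.15 for Selplg, with adjusted p between 0.538 and 0.951. Single leukemias went further, as Selplg did in JW81, from 33.8 to 47.7 FPKM (log2 ratio 0.62), where 7 of the other leukemias had ratios below 0. Itgb7 and Itgal had their highest ratios in 5C (0.52 and 0.43), whose VEH library is the one with ribosomal RNA.

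The wider pathway was read from 6 lists of 71 genes, of which 49 passed the filter. In these, 7 genes were higher and 7 lower in DEX (28.6% of those tested, beside 13.0% of all genes), with a median log2 fold change of 0.04 against 0.00 over all genes. The lists were chosen with earlier results of these data known, so their share of calls is a description and no test of the pathway. Under each removal of 1 leukemia, 7 of these 14 calls held, namely Ccr4, S1pr2, Icam1, Itgb1, Gnai3, Foxp1 and Fut4, and the other 7 were lost at least 1 time. The 4 leukemias free of ribosomal RNA libraries gave 7 calls on these lists, beside 4.26% of all genes, and the other 5 gave 0, beside 0.133%. Of the 14 genes, only Ccr4, S1pr2, Gnai3, Fut4 and Icam2 were among these 7 calls, and the rest were other genes. In those free of such libraries Foxp1 (0.32, adjusted p = 0.0539), Icam1 (-0.41, 0.0864) and Itgb1 (-0.26, 0.1397) did not pass.

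**Figure D4:**
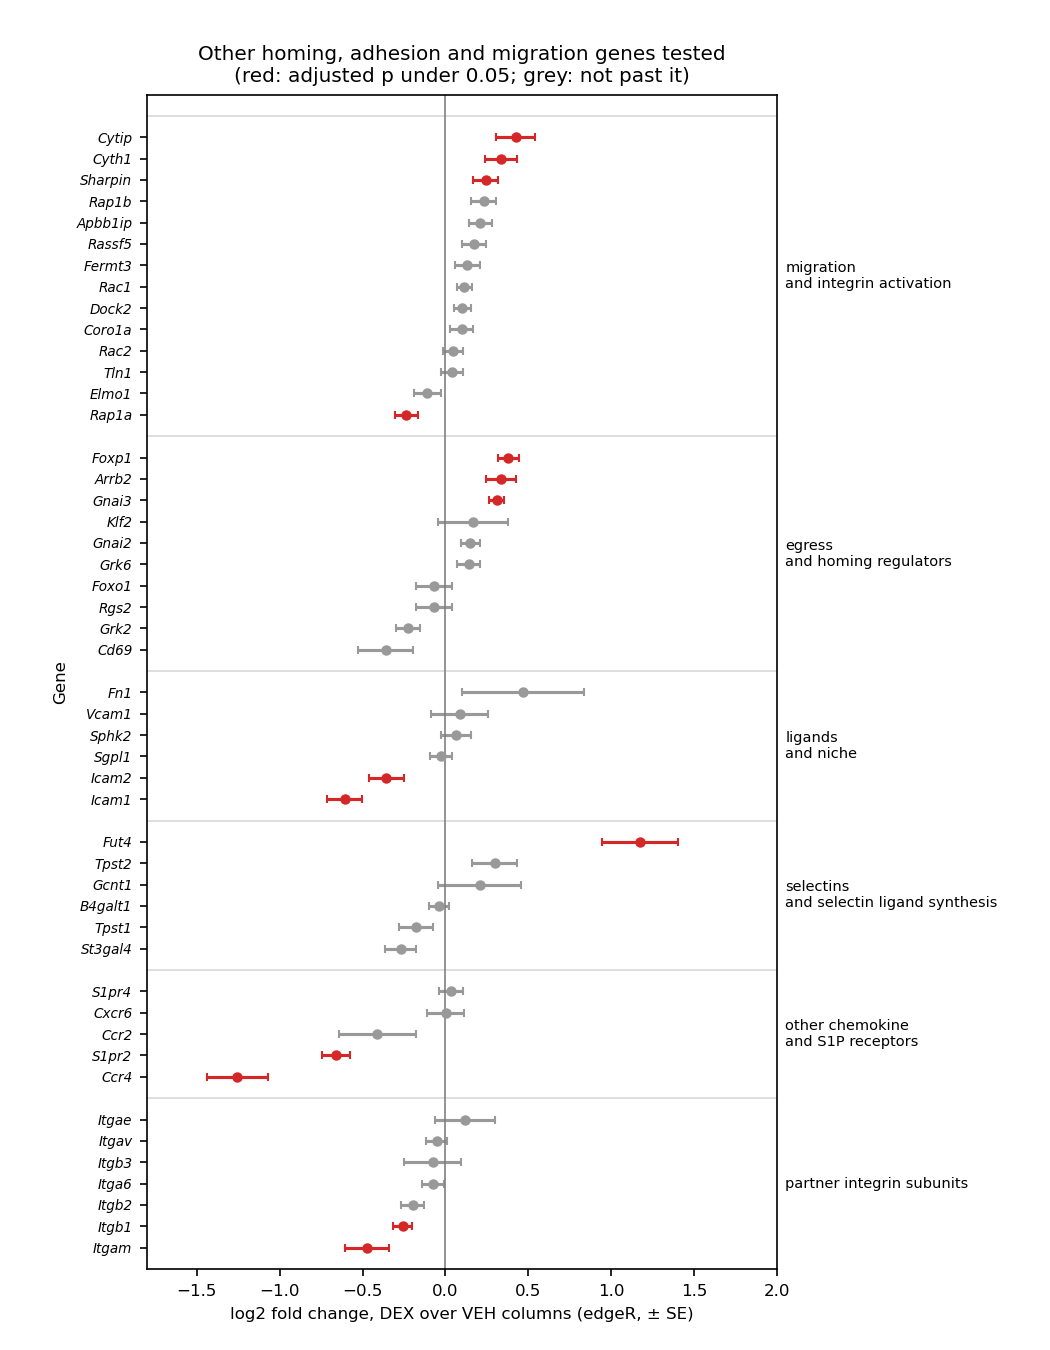
edgeR log2 fold change ± SE (DEX over VEH) of genes of the 6 lists that passed the filter (1 is left out), in red where the adjusted p is under 0.05. Ccr4 is the lowest of those in red (-1.26) and Fut4 the highest (1.18).

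Of 5 other chemokine and S1P receptors tested, 2 were lower and none higher. Ccr4, the receptor for CCL17 and CCL22, had a lowest, median and highest level of 2.54, 10.3 and 12.3 FPKM in VEH and of 1.14, 3.59 and 5.26 FPKM in DEX libraries. It was lower in DEX in 9 of 9 leukemias, with a log2 fold change of -1.26 (SE 0.182, adjusted p = 0.00268). S1pr2, a receptor that restrains migration, went from a median of 1.77 to 1.07 FPKM and was also lower in 9 of 9 (log2 fold change -0.66, SE 0.0826, adjusted p = 0.00142).

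Of 7 partner integrin subunits tested, 2 were lower. Itgb1, the beta 1 partner of alpha 4, went from a median of 49.4 to 39.3 FPKM and was lower in 8 of 9 leukemias (-0.26, SE 0.0585, adjusted p = 0.0172). Itgam, the alpha M subunit of myeloid cells, was lower as well (-0.47, adjusted p = 0.0369), beside a neutrophil list that was lower in 6 of 9 leukemias, and its call was lost in 7 of the 9 removals of a leukemia and with the ribosomal RNA term (-0.32, adjusted p = 0.131). Itgb2 had -0.20 (adjusted p = 0.0854), Itgae 0.12 (0.689), Itga6 -0.08 (0.442), Itgav -0.05 (0.599) and Itgb3 -0.08 (0.792), and Itga5 was below the filter.

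Of the ligands and niche genes, Icam1 and Icam2, both LFA-1 ligands, were lower. Icam1 went from a median of 2.52 to 1.51 FPKM, lower in 9 of 9 leukemias (log2 fold change -0.61, SE 0.106, adjusted p = 0.00627). Icam2 had -0.36 (adjusted p = 0.0472), a call that held in 1 of the 9 removals of a leukemia and was lost with the ribosomal RNA term (-0.22, adjusted p = 0.154) but not in the 4 leukemias free of such libraries (-0.39, adjusted p = 0.0492). The listed ligands of the members CCR7, CCR9 and CXCR4 averaged under 1 FPKM in these libraries. Ccl19 and Ccl21a, each read from 1 Ensembl gene, were at 0 in all 18 libraries. Any further Ensembl gene of the same symbol was not counted, and Ccl21a has near-identical copies among which counting could split reads. Ccl25 averaged 0.455, Cxcl12 0.240 and Madcam1 0.0040 FPKM. Vcam1, the ligand of alpha 4 beta 1, averaged 1.96 FPKM (log2 fold change 0.09, adjusted p = 0.759) and Fn1, encoding fibronectin, 2.79 FPKM (0.47, adjusted p = 0.399). Of the genes that make, export or degrade S1P, Sphk2 had 0.06 (adjusted p = 0.649) and Sgpl1 -0.03 (0.799), while Sphk1 and Spns2 were below the filter.

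Of 7 selectin and selectin ligand genes tested, 1 rose. Fut4, a fucosyltransferase that can build selectin ligands, had medians of 1.02 FPKM in VEH and 2.89 FPKM in DEX libraries. It was higher in DEX in 7 of 9 leukemias (log2 fold change 1.18, SE 0.229, adjusted p = 0.00951), 1 of which, 8633, held 5 counts in VEH and 7 in DEX. The call was lost with the ribosomal RNA term (0.91, adjusted p = 0.05004) and with limma at a pseudocount of 0.1 (0.76, adjusted p = 0.0641), and limma at a pseudocount of 1 gave 0.58 (adjusted p = 0.0387). In the 4 leukemias free of ribosomal RNA libraries it was 1.23 (adjusted p = 0.0225).

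Of 10 egress and homing regulators tested, 3 rose and none fell. Foxp1, a transcription factor of T cell quiescence, went from a median of 6.59 to 8.31 FPKM and was higher in 9 of 9 leukemias (0.38, SE 0.0641, adjusted p = 0.00555). Gnai3, a subunit of the inhibitory G protein that chemokine receptors use, went from 84.4 to 104 FPKM and was also higher in 9 of 9 (0.31, SE 0.0454, adjusted p = 0.00272). Arrb2, the arrestin that ends receptor signals, had 0.33 (adjusted p = 0.0350), a call that held in 3 of 9 removals.

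Of 14 migration and integrin activation genes, 3 rose and 1 fell. Cytip had 0.42 (adjusted p = 0.0387), its partner Cyth1, an activator of LFA-1 adhesion, 0.33 (0.0458), and Sharpin, an integrin inhibitor, 0.24 (0.0483). Rap1a, a GTPase that activates integrins, fell by 0.24 (log2, adjusted p = 0.0439). These calls held in 2 (Cytip and Sharpin), 3 (Cyth1) and 4 (Rap1a) of the 9 removals of a leukemia. With the ribosomal RNA term none of the 4 passed (adjusted p from 0.136 to 0.186), at 0.35 for Cytip, 0.24 for Cyth1, 0.17 for Sharpin and -0.18 for Rap1a. In the 4 leukemias free of ribosomal RNA libraries Cytip was 0.48, Cyth1 0.34 and Rap1a -0.20 (adjusted p from 0.0674 to 0.205). Sharpin was 0.09 (adjusted p = 0.512) in these and 0.36 (adjusted p = 0.13997) in the other 5.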

How the data were processed

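Bulk bone marrow RNA-seq of 10 leukemias was analysed. The deposited values are expected counts, which the authors estimated with RSEM from reads aligned with Bowtie 2 to mm10, after poly(A) selection and TruSeq library preparation. Per gene these were rounded to whole numbers. FPKM were computed from merged exon lengths of the GENCODE annotation on GRCm38, found for 37693 of 39017 genes (96.6%). The 11339 genes whose mean over the 18 libraries reached 1 FPKM were tested with edgeR 4.0.16 (TMM, quasi-likelihood F test, R 4.3.3), with leukemia and column name as terms, Benjamini-Hochberg adjustment over all genes and a threshold of 0.05. Levels used log2(FPKM + 1). DESeq2 1.42.0 and limma 3.58.1 were alternatives, with other filters, pseudocounts, removals of leukemias and a term for ribosomal RNA libraries. Deviations from the column means correlated at 0.58 to 0.91 (median 0.81) within leukemias and at -0.63 to 0.79 (median -0.12) between them. On simulated counts 97% of 2-fold changes between DEX and VEH were recovered, and 76% of 2-fold differences in 1 leukemia among leukemias. These counts followed the dispersion trend over all genes, and the DEX change was the same in every leukemia. Recovery of a change that varies between leukemias, as that of Ccr7 did, was not measured.

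The 9 members and the lists were chosen with earlier results of these data known. Named are all members, their partner subunits and ligands, wider-list genes past the threshold and the 2 genes most like each member. Klf2 and the promoters printed were chosen after values were seen. The genotype of the primary mice and 1 gene of the wider lists are not reported here. P-values for DEX against VEH rest on the spread of that change between leukemias. Those for differences among leukemias rest on the spread within leukemias left after the column name. Within a leukemia there is 1 library per column. Intervals on counts cover counting error only.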

Additional observations from a re-analysis of the deposited data

Results flagged for a closer look

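The DEX minus VEH change of Ccr7 in JW81 was 1.00 on the log2(FPKM + 1) scale, far above the other 8 leukemias, all of which were below 0 (Dixon ratio 0.540, past the 95% critical value for 9 values). In all, 18 sets of 9 leukemias were compared in this way and 1 passed, where chance passes about 1 in 20.

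The leukemia 4638, outside the comparisons, had mean levels of 1.02 FPKM for Ccr7, 1.02 for Ccr9, 95.5 for Cxcr4, 1.35 for S1pr1, 48.3 for Cd44, 28.5 for Itga4, 39.5 for Itgb7, 33.4 for Itgal and 38.4 for Selplg, all above the limit that a count of 0 allows. Cd44 lay above all 9 compared leukemias and the other members lay within their range. Its neutrophil list averaged 8.30 and its T lineage list 3.54 (log2(FPKM + 1)), outside the ranges of 1.34 to 7.003 and 4.37 to 5.77 in the compared leukemias. The log2 ratios of DEX over VEH in 4638 were 0.62 for Ccr7, -0.10 for Ccr9, -0.21 for Cxcr4, 0.13 for S1pr1 and -0.57 for Cd44. They were 0.30 for Itga4, -0.34 for Itgb7, -0.13 for Itgal and -0.23 for Selplg, each from 1 library against 1.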

How the results depend on the processing

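All 9 members differed among leukemias under every alternative run. The count of all genes called between DEX and VEH (1475) fell to 8 with no replicate block, 465 with the ribosomal RNA term, 479 in the 4 leukemias without such a library and 15 in the 5 with one. Without 1 leukemia it lay between 675 (20M) and 2036 (5C), with 725 without 2M, 763 without 73A, 846 without 73M and 973 without JW81. The wider-list count (14) was 0 without the block and in the leukemias with a ribosomal RNA library, 7 with the term and in those without, and 7 to 17 without 1 leukemia. The members called (0) became 2 with DESeq2 and with no filter (2169 and 1803 of all genes), 1 with limma at a pseudocount of 1 or 0.1 (1532 and 1554), with filterByExpr (1547), with 4638 added (1430) and in the leukemias without a ribosomal RNA library, and 0 to 1 without 1 leukemia: Ccr9 without 5C (adjusted p = 0.0305) or 78A (0.0418), Ccr7 without JW81. Over its alternatives the adjusted p of Ccr7 ran from 0.00622 to 1.00 and that of Ccr9 from 0.00981 to 1.00, the upper ends with no block.

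Signs changed for log2 fold changes near 0. Cd44 was -0.14 in the leukemias with a ribosomal RNA library, where Itgb7 was 0.0409 and Itgal -0.0187. Itgb7 was 0.0248 with the ribosomal RNA term. Itgal was -0.0385 and -0.0401 with limma at a pseudocount of 1 and 0.1, -0.0263 with no filter and -0.00435 with 4638 added. Without 1 leukemia, Itgal ran from -0.0427 (5C) to 0.0481 (JW81), below 0 also without 2M or 73A, and Selplg from -0.122 (JW81) to 0.00186 (73M). The causes were not tested. S1pr1 gave no value without 5C, where it fell below the filter. Depth limits Ccr7 and S1pr1 most, at 9 counts in their lowest library. The alternative restricted to leukemias with a ribosomal RNA library was chosen after seeing the data, as was the principal transcript length.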
